A study of Mus musculus with 7 samples.

Results

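The Myc and Pvt1 domain is the 3 Mb of mouse chromosome 15 from chr15:61000000-64000000 (mm10) that holds Myc, Pvt1 and the gene-poor sequence on either side. Its members are CTCF sites of ChIP-exo 5.0, an assay in which an exonuclease trims immunoprecipitated DNA on both strands until it meets the crosslinked protein. A tag is the position of 1 such stop. A site is a peak of forward-strand tags and a peak of reverse-strand tags whose centre lies 10 to 80 bp downstream, kept where no stronger pair lies within 100 bp. By this rule the domain held 51 sites of the 80756 in the genome, all taken from the deepest library and ranked by the tags of their peak pair. The 51 sites formed 43 groups when those within 200 bp of one another were counted once.

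CTCF is a zinc finger protein that binds a long, oriented DNA motif at insulators and at the borders and loop anchors of chromatin domains, where it stops the loop-extruding complex cohesin. Myc encodes a transcription factor of cell growth and proliferation and is a proto-oncogene. Pvt1 is a long noncoding RNA gene next to it, and the long flanks of both genes are known for enhancers that act on Myc from afar in a tissue-specific way.

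The 7 libraries came from wildtype mice, with 1 library per condition, so that differences between libraries could not be tested. Brain, lung, kidney and liver of male mice aged 16 weeks gave 1 organ library each, from 100 mg. The other 3 were a titration of liver cells with 2700000, 270000 and 27000 cells. For these, too, the methods give liver tissue of male mice aged 16 weeks, processed at 100 mg. Their cell numbers were estimated from the wet weight of the tissue. Tissue was crosslinked with 1% formaldehyde by the methods and 0.3% by the labels, and the labels give a CTCF antibody, whereas their extraction text names IgG. Tissue is a mixture of cell types, so that a site used in few cells and a site weakly bound in many cannot be told apart.

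The libraries differed widely in depth, from 35594 tags with 27000 cells to 6592538 with 2700000, and the organs lay between 527038 in liver and 1635582 in kidney. The domain held 0.0667% of the tags of the 2700000 cell library (95% Wilson interval 0.0647 to 0.0687), and between 0.0742% in lung and 0.101% in kidney for the organs. Without peaks whose tags all lay at 1 position the order turned, with 0.0593% for 2700000 cells and 0.0336% in brain to 0.0518% in lung for the organs. Of its listed peaks, 83.0% in liver to 93.1% in kidney had all their tags at 1 position, as had 41.9% with 2700000 cells and each of the 6 peaks with 27000 cells. Over the genome these shares were 76.3%, 91.5% and 33.1% for liver, kidney and 2700000 cells, and 72.8% for 27000 cells. In brain the share was 92.0% in the domain against 83.2% over the genome, and in lung 92.1% against 83.1%. The lowest count listed was 2 tags, so that a 0 below stands for no listed peak. Intervals cover counting error only.

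The domain held fewer CTCF sites and protein-coding genes than the median window of 3 Mb, and its strong sites lay mostly at the far end from Myc. It held 17 sites per Mb, and 15 sites of at least 20 tags are called the strong sites, a limit chosen after the data were seen. The weakest of them had 21 tags, and the strongest of the rest had 19. Among 868 windows of 3 Mb that tile the chromosomes, the median held 74.5 sites, 22 strong sites and 17 protein-coding genes. Of these windows, 31.5% held fewer sites than the domain and 34.8% fewer strong sites. The domain has 6 protein-coding genes among 32 genes. The 3 Mb around Mycn, the paralogue of Myc used in neural cells, held 44 sites, of which 11 were strong. The window around Shh, which encodes a secreted patterning signal, held 72 sites, and the one around Sox9, a regulator of cartilage and testis development, held 104.

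Within the domain, the 4 strongest sites held 43.6% of the 1219 pair tags. The last 400 kb, a limit also set after the data were seen, held 19 sites, 10 of the 15 strong ones and 60.9% of the pair tags. The 985 kb before Myc held 15 sites, of which 4 were strong. Between the strong site past Pvt1 at chr15:62413789-62413988 and the strongest site of the domain lay 1239 kb in which no site passed 19 tags. The longest stretch with no site at all was 428 kb, ending at chr15:63240744-63240943. The sites at the edges were weak: the nearest site outside the window had 7 tags at the lower end and 5 at the upper end, against 8 and 11 tags for the first and last site inside.

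**Figure D1:**
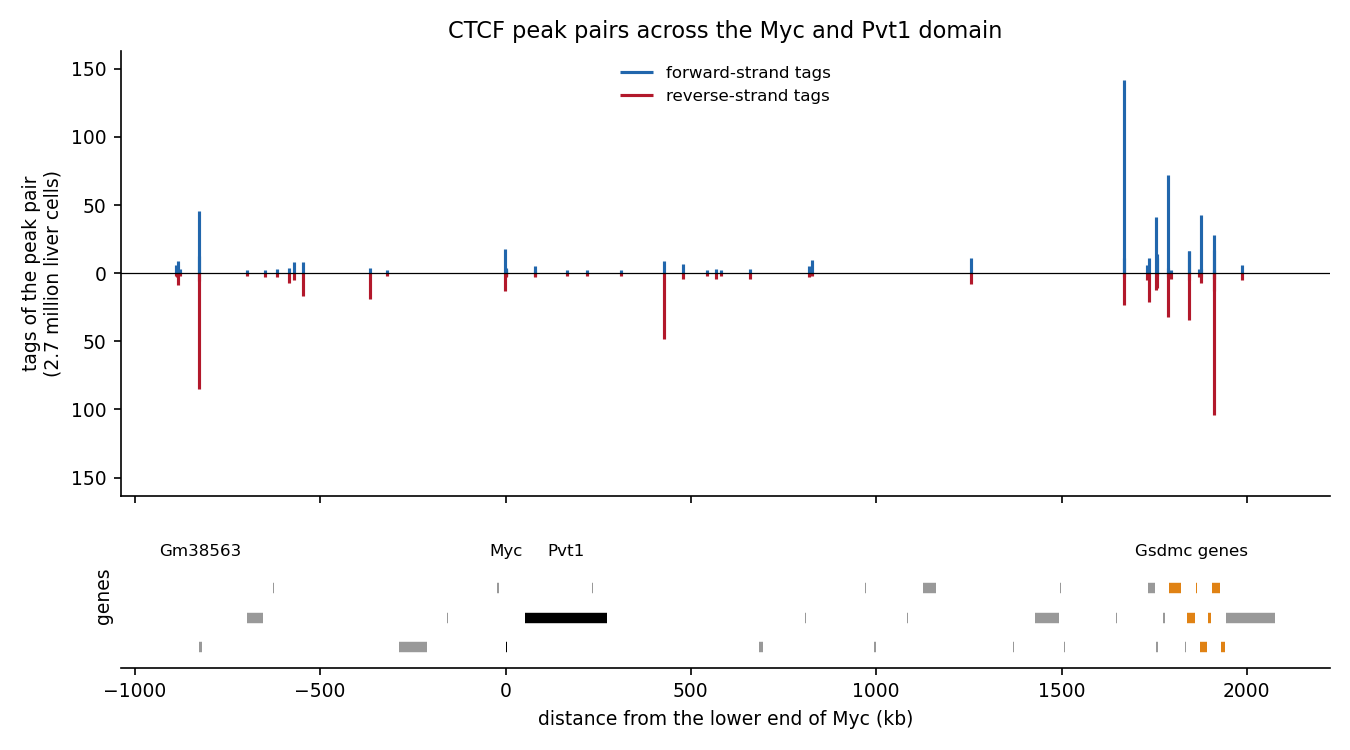
CTCF sites by distance from the lower-coordinate end of Myc in kb, with forward tags of each peak pair up and reverse tags down (2700000 liver cells, tags), and gene bodies below (Myc and Pvt1 black, Gsdmc genes orange, others grey). The last 400 kb hold 10 of the 15 strong sites, and no site inside Myc or Pvt1 passes 8 tags.

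The strongest signal next to Myc was a single site 1921 bp below its lower-coordinate end, at chr15:61983320-61983519, and it was the 1 site of the domain with tags in all 4 organs, the liver tags being absent with a window of 100 bp. Its peak pair held 31 tags with 2700000 cells, 18 forward and 13 reverse. The 200 bp around it held 12 tags in lung (exact Poisson interval 6.20 to 20.96), 9 in kidney (4.12 to 17.1), 7 in brain (2.81 to 14.4), 2 in liver (0.242 to 7.22), 76 with 2700000 cells, 6 with 270000 and 0 with 27000. The 4 intervals of the organs overlapped one another. Per 1000000 tags of its library, the lung value of 17.4 was the highest, followed by brain with 6.78, kidney with 5.50 and liver with 3.79. This scaling leaves out how much of each library lies at sites. At all sites of the genome outside 23 dense bins of repeated signal, the organs had the same order. As a share of the tags of the 2700000 cell library there, lung had 5.39%, brain 5.22%, kidney 2.69% and liver 1.06%. Lung led there with 691479 tags in all, against 1032833 in brain. Whether the order is particular to the Myc site was not tested. All 12 tags in lung and all 9 in kidney belonged to peaks spread over more than 1 position, as did 4 of the 7 in brain, whereas the 2 liver tags lay at 1 position. Brain, lung and kidney each had a peak pair of their own within 14 bp of the site centre.

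The body of Myc held 3 weak sites, of 5, 5 and 6 tags. The site at chr15:61985478-61985677, 237 bp inside the lower-coordinate end, had 9 tags with 2700000 cells and 11 in lung, and the lung tags were all at 1 position. The site at chr15:61986854-61987053, outside the naming rule and chosen after its values were seen, had 10 tags in lung and 5 in kidney, in each case in a peak of 1 position. The site of 6 tags, at chr15:61987041-61987240, had no organ tags. The 47.6 kb between Myc and Pvt1 held no site, although 15 unpaired peaks with 33 tags were listed there with 2700000 cells.

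Pvt1, at 222 kb the longest gene wholly inside the domain, held 4 weak sites, and no organ had a listed tag within 100 bp of them. The strongest was at chr15:62065421-62065620, with 8 pair tags and 23 tags in the 200 bp around it with 2700000 cells. A kidney pair of 5 tags lay 121 bp from it, and a window of 400 bp held 7 kidney tags. Away from the sites, the organs did have listed peaks in the gene. These were 28 in brain with 89 tags, 8 in lung with 42, 41 in kidney with 138 and 17 in liver with 37. Among them was a kidney peak of 11 tags at chr15:62132468, spread over more than 1 position. The other sites inside the gene had 4 tags each, the lowest count that a pair can have. Past the upper-coordinate end of Pvt1 the nearest site lay 35344 bp away, again with 4 tags, and the first strong one lay 153674 bp away. That strong site, at chr15:62413789-62413988, had 9 forward and 48 reverse tags, and among the other libraries tags were listed only in lung, 7 at 1 position.

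The site with most organ tags lay in Gm38563, a long noncoding RNA gene of unstated function 828 kb before Myc, and it ranked number 3 by pair tags. It was at chr15:61157600-61157799, with 46 forward and 85 reverse tags. The 200 bp around it held 64 tags in lung, 39 in brain, 7 in kidney, 0 in liver, 270 with 2700000 cells, 22 with 270000 and 0 with 27000. Per 1000000 tags of its library, lung had 92.6, the 2700000 cells, in which the site was called, 41.0, brain 37.8, the 270000 cells 34.3 and kidney 4.28. As at the Myc site, this scaling leaves out how much of each library lies at sites. Brain, lung and kidney thus held tags and the liver organ had none listed. Of these tags, 57 in lung, 32 in brain and 7 in kidney lay in peaks of more than 1 position. The nearest peak pairs of brain, lung and kidney had their centres 27, 37 and 53 bp from the site centre. The organ stops thus did not lie where those of the 2700000 cells did. A weaker site 0.113 kb away, with 19 pair tags, shares part of this window, and the 2 together held 315 tags with 2700000 cells and 64 in lung.

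RefSeq (GRCm38.p6, the coordinates of mm10) gave 12 promoter windows in the domain, each of 250 bases before and 50 after a start, and Myc and Pvt1 were not among them. The window of Gm38563 is shown because its start lies 543 bp from the site with most organ tags, and that of 4930449C09Rik, a long noncoding RNA gene, because it has a core of the CTCF motif in capitals. That core was searched as AGGNGGC on both strands, after the data were seen, and 29.4% of 32851 promoter windows of the genome and 2 of the 12 in the domain held it. Both windows are on the plus strand, at chr15:61156907-61157206 and chr15:63718098-63718397.
Gm38563: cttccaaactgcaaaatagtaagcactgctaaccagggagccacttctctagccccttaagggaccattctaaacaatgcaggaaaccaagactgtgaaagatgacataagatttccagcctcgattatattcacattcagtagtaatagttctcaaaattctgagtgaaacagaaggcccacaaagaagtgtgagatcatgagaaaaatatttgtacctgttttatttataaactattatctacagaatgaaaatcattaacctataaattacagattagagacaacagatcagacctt
4930449C09Rik: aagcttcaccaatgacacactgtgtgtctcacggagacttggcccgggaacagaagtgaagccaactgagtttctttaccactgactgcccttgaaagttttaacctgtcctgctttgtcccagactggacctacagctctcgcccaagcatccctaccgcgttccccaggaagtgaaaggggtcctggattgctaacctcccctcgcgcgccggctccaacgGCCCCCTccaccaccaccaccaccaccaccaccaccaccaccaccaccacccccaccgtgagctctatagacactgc
The first window held 1 peak of 2 tags with 2700000 cells, and the second held no listed peak in any library. The nearest site to the second was 3563 bp past the start, at chr15:63721811-63722010, with 32 pair tags.

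The strong sites at the far end lay around 4930449C09Rik, Gm41336 and the Gsdmc genes, which encode gasdermins, proteins that form pores in membranes. The strongest site of the domain, at chr15:63652635-63652834, lay 20.2 kb from the pseudogene Gm5473 and had 142 forward and 23 reverse tags. At least as many tags were found at 1413 sites of the genome. The 200 bp around it held 16 tags in lung, 10 in brain, 0 in both kidney and liver, 261 with 2700000 cells, 10 with 270000 and 0 with 27000. Here the lung tags lay in 2 peaks of 1 position, both on the reverse strand, whereas 6 of the 10 brain tags were in spread peaks.

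The site in Gm41336 at chr15:63740655-63740854 and the site in 4930449C09Rik were alike in where they had tags. The first had 53 pair tags and held 16 tags in lung, 8 in kidney, 6 in brain and 0 in liver. The second held 14, 9, 4 and 0 in the same order. With a window of 100 bp the kidney tags fell to 0 at both. No lung tag at either lay in a peak of more than 1 position.

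**Figure D2:**
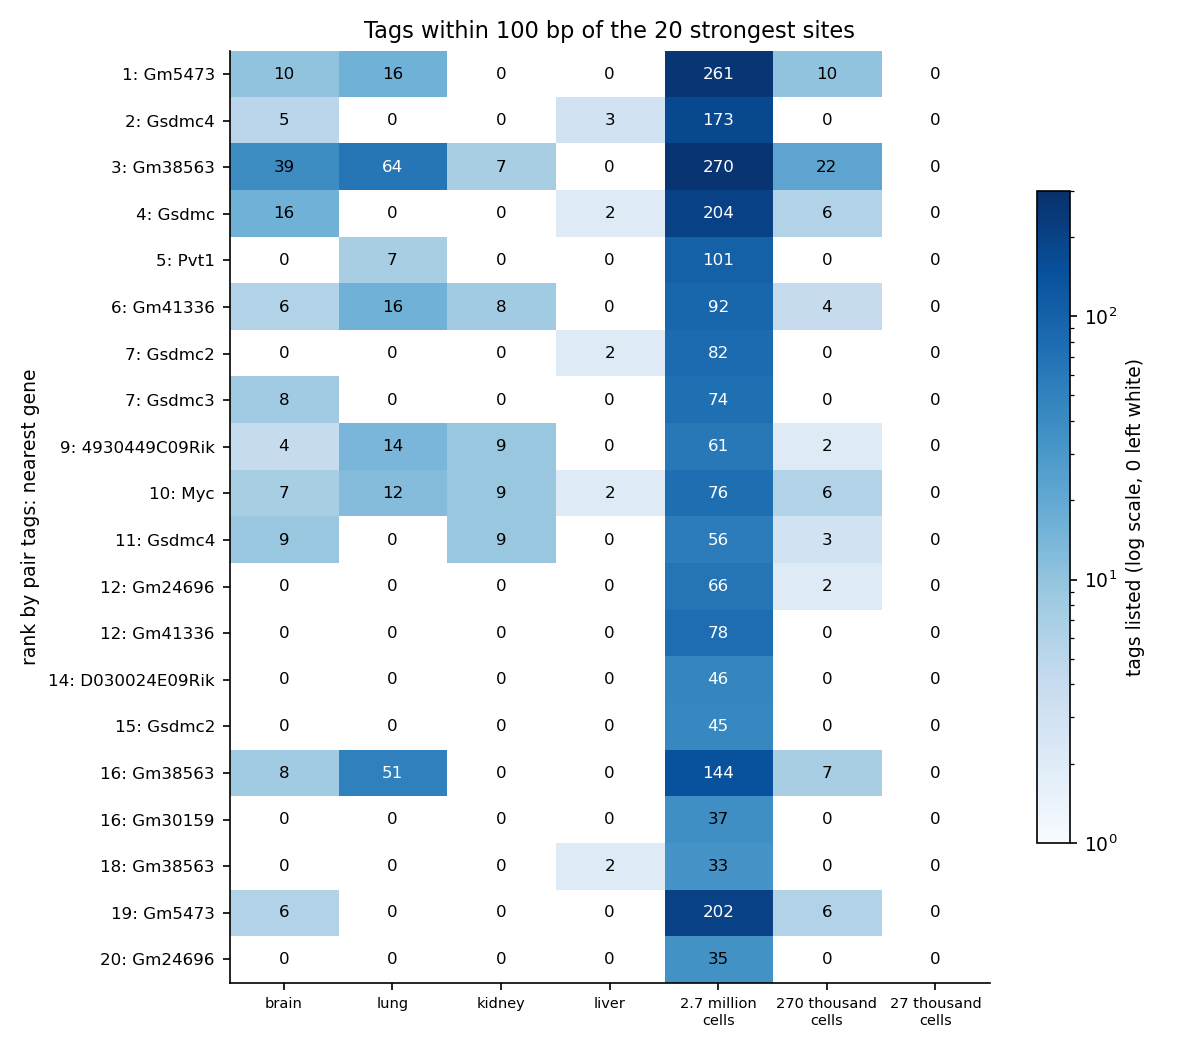
Tags listed within 100 bp of the 20 strongest sites (rows, by rank of pair tags and nearest gene) in each library (columns), with colour on a log scale and 0 left white. The Gm38563 rows hold the highest organ counts, 39 in brain and 64 in lung, and the 27000 cell column is 0 throughout.

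At the Gsdmc genes the sites recurred at like distances from the lower-coordinate end of the gene, an alignment made after the data were seen. Gsdmc2 had sites of 21 and 50 tags at 4436 and 4830 bp, Gsdmc3 a site of 50 tags at 4570 bp, and Gsdmc4 sites of 30 and 132 tags at 4619 and 5025 bp. In Gsdmc the only site inside was at 4912 bp with 6 tags, and its strong site, with 104 tags, lay 4180 bp outside the gene at chr15:63771691-63771890. These genes are paralogues and alignments that were not unique had been removed, so that tags of identical sequence are missing from all of them, by an amount that was not tested.

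The Gsdmc sites differed among the organs in where tags were listed. The site of 132 tags in Gsdmc4, at chr15:63896065-63896264, held 5 tags in brain, 3 in liver, 0 in both lung and kidney, 173 with 2700000 cells and 0 in both smaller titration libraries. The site outside Gsdmc held 16 tags in brain, 2 in liver, 204 with 2700000 cells, 6 with 270000 and 0 in the others. Lung had no listed tag within 100 bp of any of the 11 sites at these genes, although a lung peak of 6 tags lay 116 bp from the site outside Gsdmc. Kidney had tags at 1 of them, 9 at the site of 30 tags in Gsdmc4. Brain tags were listed at 8 of the 11, but several windows overlap, and with sites within 200 bp counted once brain had tags at 5 of 8 groups. Over the genome, 38.1% of sites had tags in brain, 29.5% in lung and 27.2% in kidney.

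**Figure D3:**
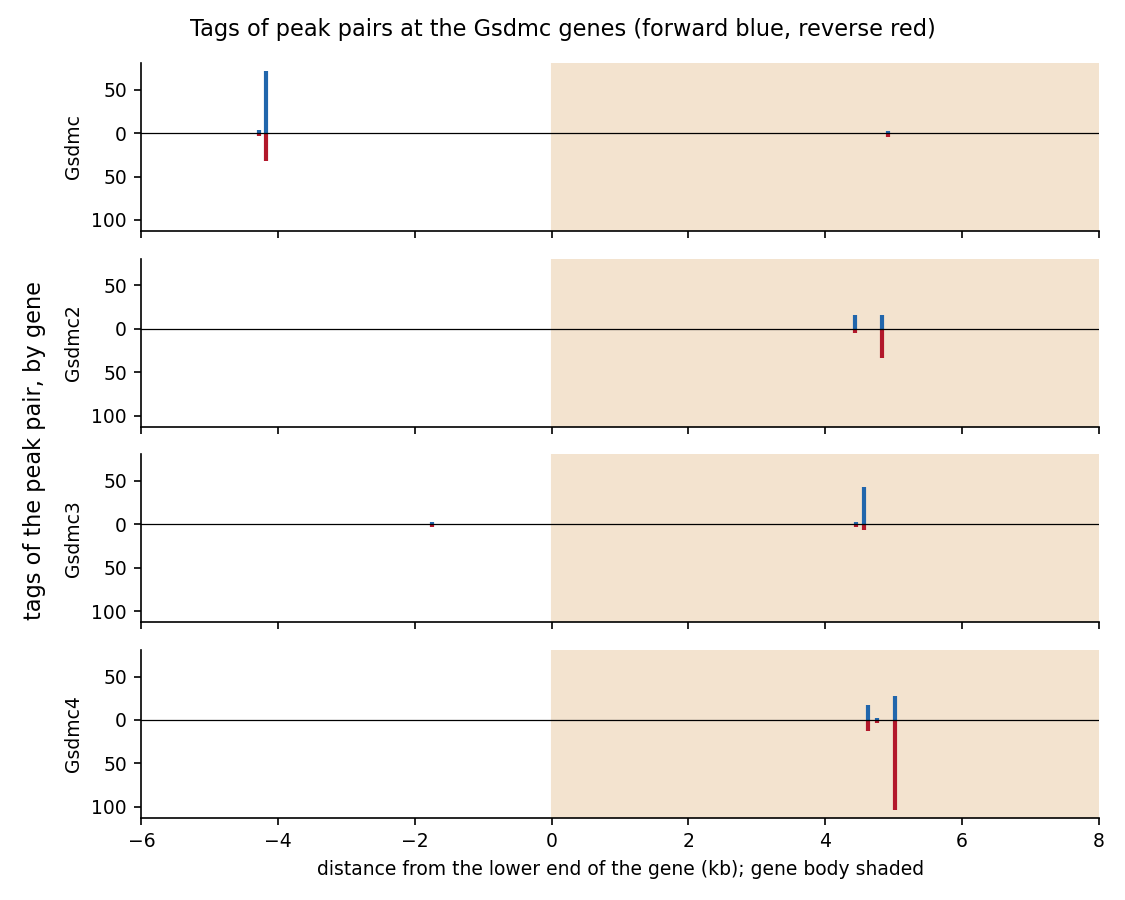
Peak pairs at the 4 Gsdmc genes by distance from the lower-coordinate end of each gene in kb (gene body shaded), with forward tags up and reverse tags down (2700000 liver cells). Gsdmc2, Gsdmc3 and Gsdmc4 have strong sites between 4436 and 5025 bp inside the gene, and Gsdmc has its strong site 4180 bp outside.

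The order of the organs by sites with tags depended on how tags were counted. Within 100 bp, tags were listed at 17 sites in brain, 33.3% (Wilson interval 22.0 to 47.0) against 38.1% of all sites of the genome. Lung had tags at 9 sites, 17.6% (9.57 to 30.3) against 29.5%, kidney at 6, 11.8% (5.51 to 23.4) against 27.2%, and liver at 7, 13.7% (6.81 to 25.7) against 16.3%. The share for the genome lay above the interval in kidney and inside it in the other organs. These intervals treat the sites as independent, although 16 of them lay in 8 groups with overlapping windows. With sites within 200 bp counted once, kidney had tags at 6 of 43 groups, for which no genome share is given. With a window of 400 bp kidney had 12 sites, 23.5% (14.0 to 36.8) against 36.2%, which lay inside the interval, whereas the lung share of 21.6% (12.5 to 34.6) stood against 37.5%, above it. With a window of 100 bp only the genome value of kidney lay above the interval among the organs, 19.6% against 7.84% (3.09 to 18.5). The same windows moved by 5 kb held tags at up to 3 places in brain, 2 in kidney, 1 in liver and 0 in lung on either side. Tags in peaks of more than 1 position were found at 10 sites in brain (19.6% against 26.0% of all sites), 6 in liver (11.8% against 11.4%), 5 in kidney (9.80% against 12.0%) and 3 in lung (5.88% against 13.5%). Each genome value by that count lay inside the interval of the domain. Lung then had the fewest sites. With peaks of at least 5 tags the domain held 20 sites rather than 51. Lung then had tags at 7 sites, brain at 4, kidney at 3 and liver at 0. No genome share is given for that minimum. The median listed peak of the domain had 5 tags for lung, 3 for both brain and kidney, and 2 for liver. Whether the order by that minimum is particular to the domain was not tested.

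Of the 15 strong sites, brain had tags at 9 (60% against 64.1% of strong sites of the genome), lung at 6 (40% against 51.9%), kidney at 5 (33.3% against 46.2%) and liver at 4 (26.7% against 30.7%). Each of these genome values lay within the Wilson interval of the domain. None of the 4 organs had tags at 29 of the 51 sites, 56.9% against 44.9% of all sites, and 4 of those 29 were strong. Sites with tags in 1 organ numbered 10 (19.6% against 22.4%), in 2 organs 8 (15.7% against 15.4%), in 3 organs 3 (5.88% against 11.3%) and in 4 organs 1 (1.96% against 5.99%). Counting intervals were not computed for these shares by number of organs, so no excess is read from them. No genome share is given for the 4 strong sites without organ tags.

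**Figure D4:**
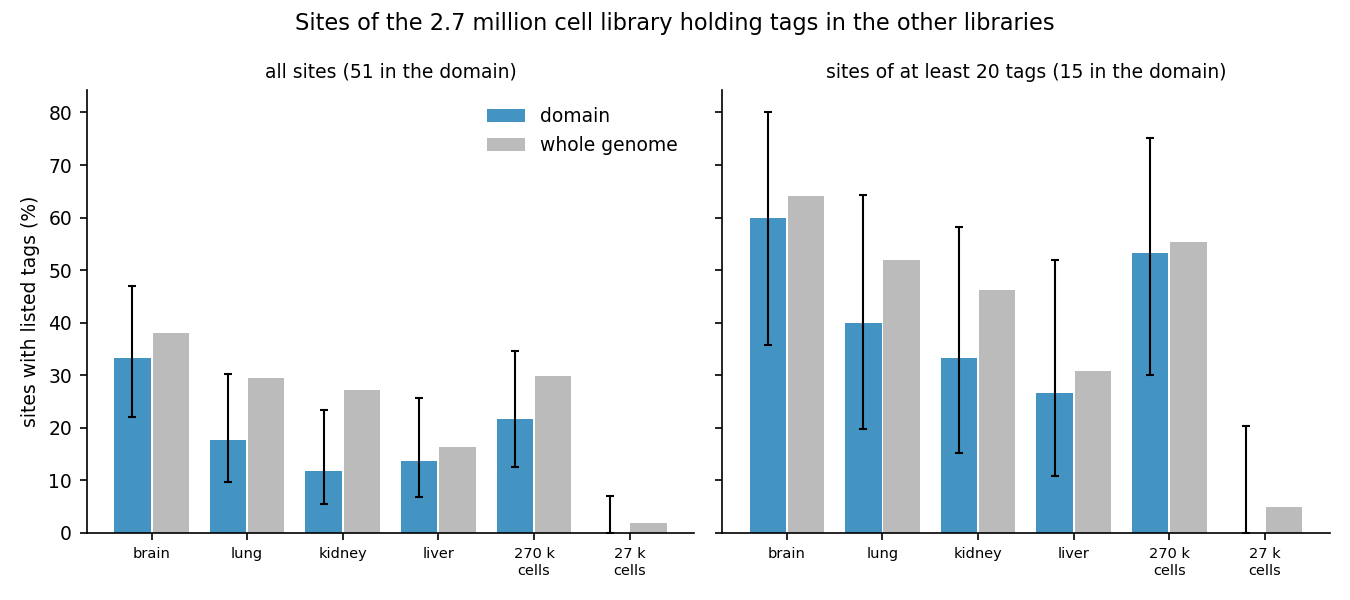
Percent of the sites of the 2700000 cell library with listed tags in each other library, for all 51 domain sites (left) and the 15 strong ones (right), beside the whole genome in grey; error bars are 95% Wilson intervals. The kidney share of all sites, 11.8% (5.51 to 23.4), stands against a genome value of 27.2%; with peaks of more than 1 position only, which are not drawn, the values were 9.80% and 12.0%.

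The sites were called with 2700000 cells, and the smaller titration libraries had far fewer tags in all, so that the share of sites seen in them is read only against the genome. With 270000 cells tags were listed at 11 sites, 21.6% against 29.9% of all sites, and at 8 of the 15 strong sites, 53.3% against 55.3%. With 27000 cells tags were listed at none of the 51 sites, against 1.88% of all sites, and at none of the strong ones, against 4.84%. Outside 23 dense bins of repeated signal, in which no domain site lies, these genome shares were 0.973% and 2.01%. Counting each peak once, the tags at the sites were 2276 with 2700000 cells (2183 to 2371), 61 with 270000 (46.7 to 78.4) and 0 with 27000. With windows counted separately, the 270000 cell library had 2.73% of the tags of the 2700000 cell library at the domain sites, and 2.99% at all sites outside these dense bins. The difference was smaller than the counting interval of the 61 tags.

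By the same ratio to the 2700000 cell library, brain had 5.06% at the domain sites against 5.22% at all sites outside the dense bins, lung 7.21% against 5.39%, kidney 1.69% against 2.69% and liver 0.718% against 1.06%. In lung, the 2 overlapping windows in Gm38563 held 64 of 150 tags when each peak was counted once. Counted once, the tags were 6.59% of the 2276 in lung and 4.96% in brain. They were 2.07% in kidney, 47 with an exact Poisson interval of 34.5 to 62.5, and 0.791% in liver, 18 with one of 10.7 to 28.4. Of the 18 liver tags, 7 lay at chr15:62802904-62803103, a site of 8 pair tags after Pvt1. It had the most liver tags of the domain sites, and a liver pair lay 10 bp from its centre. That site held 16 tags with 2700000 cells and 2 in brain. With the dense bins included, the values over all sites were 7.30% in kidney and 4.33% in liver.

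The building rule fixes that a reverse peak lies 10 to 80 bp past the forward peak, and the median distance moves with that range (57 bp with 10 to 120 bp). The median distance from the forward to the reverse peak was 48 bp at the domain sites and 44 bp at all sites, and 48 and 42 bp at the strong ones. The interval of the domain median, 44 to 56 bp by order statistics, reached the value of all sites. By pair tags, the strands were unequal at many strong sites: 8 had more forward and 7 more reverse tags. The exact binomial interval lay above 50% forward at 5, below it at 5 and around it at 5. The heavier strand held a median of 69.2% of the pair tags at the strong sites, against 67.2% at all strong sites of the genome. Pair tags leave out the other listed peaks of a window. The strongest site and the site in Gsdmc3 were the most forward by pair tags, at 86.1% and 86.0%, and the site past Pvt1 was the most reverse, with 15.8% forward. Besides its pair, the window of the strongest site held a forward peak of 15 tags and reverse peaks of 2 to 22 tags. The Myc site was near even by pair tags, with 58.1% forward (39.1 to 75.5). Outside that pair, its window held forward peaks of 8 and 2 tags and reverse peaks of 13, 10, 10 and 2. The whole window of the Myc site thus had more reverse than forward tags.

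The strand of most tags had a relation to the motif where sequence could be read. In 258 strong sites of the genome that lay in a promoter window with AGGNGGC on 1 strand within 40 bp of the centre, the heavier strand was the one without AGGNGGC at 204, or 79.1% (Wilson interval 73.7 to 83.6). The motif orientation of the domain sites was not read here. As a description of the strands only, 3 of the 4 strong sites before Myc were reverse-heavy by pair tags. The Myc site was the other one, although its whole window had more reverse than forward tags.

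**Figure D5:**
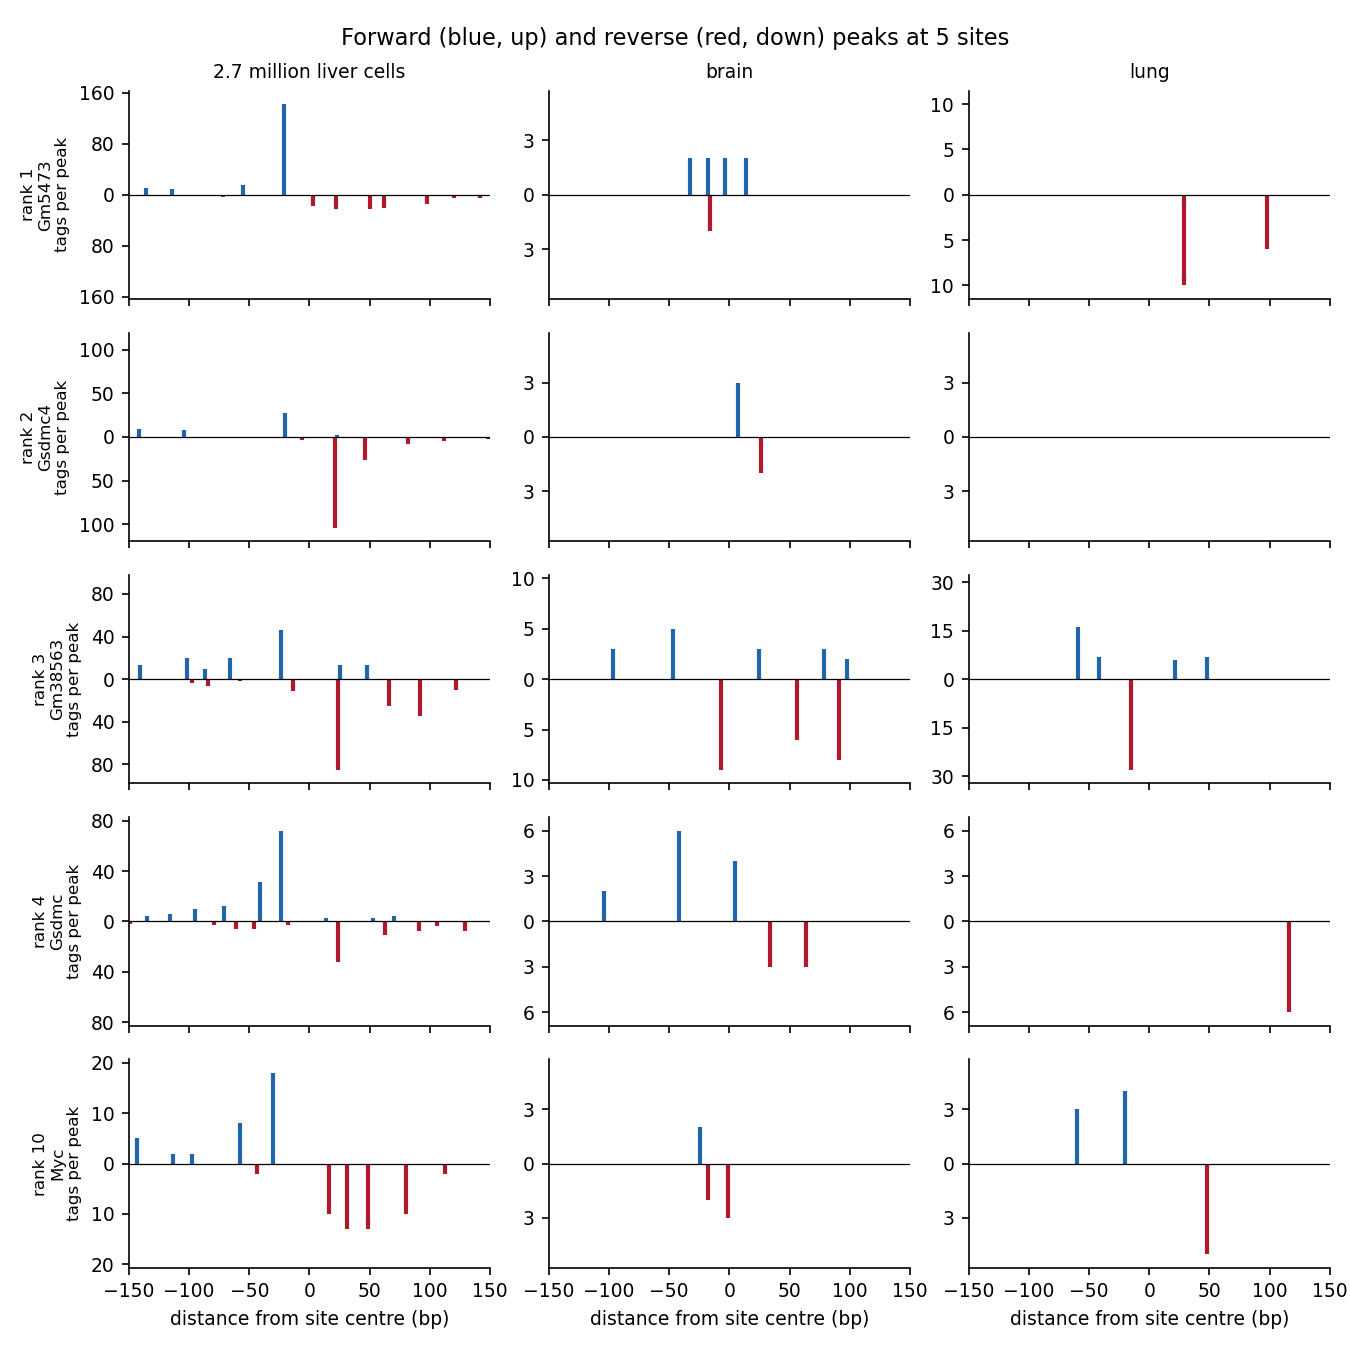
Listed peaks around 5 sites by distance from the site centre in bp, with forward tags up and reverse tags down, in the 2700000 cell, brain and lung libraries (each panel has its own scale). The forward-then-reverse order with 2700000 cells follows from the building rule. In lung the strongest site has only 2 reverse peaks, of 10 and 6 tags.

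Peak pairs of the organs themselves added few places. Brain had 8 pairs in the domain, lung 3, kidney 6 and liver 2, of which 1, 0, 3 and 1 had no pair of the 2700000 cell library within 50 bp. Over the genome such pairs were 31.5% in kidney, 16.2% in liver, 10.01% in brain and 6.93% in lung. The highest of the 5 in the domain was a kidney pair of 7 tags in the long noncoding RNA gene Gm20740, and the kidney pair in Pvt1 was another. All 4 in brain and kidney consisted of peaks of 1 position.

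The highest peak of the domain in brain, kidney and liver was at none of the sites. It was a forward peak at chr15:63626928 in brain, chr15:63626927 in kidney and chr15:63626926 in liver, 4.66 kb from Gm5473, and was chosen for description after its values were seen. It held 10 tags in brain, 12 in kidney and 9 in liver, spread with a standard deviation of 2.76, 2.67 and 3.13 bp. Lung had no listed peak there. With 2700000 and with 270000 cells there was only a reverse peak of 3 tags, and kidney had a reverse peak of 5 tags 7 bp away. No forward and reverse peak there lay at the distance of a site, and the nearest site was 25.7 kb away.

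Of the 32 genes of the domain, 10 held a site in the gene body and 20 had one within 20 kb. All 6 protein-coding genes held a site, as did 4 of the 12 long noncoding RNA genes and none of the 14 others, most of them pseudogenes. Within 20 kb all 6 protein-coding genes had a site, against 84.6% of 21631 protein-coding genes of the genome. No genome share is given here for sites in gene bodies or for the other gene types, and gene length was not taken into account. Cyrib, whose product restrains actin remodelling by Rac1 and which runs past the end of the window, held 1 site of 11 tags with no organ tags. The genes with no site within 20 kb included Gm30113, Gm41334, Gm30159, Gm41335 and Gm20740, which are long noncoding RNA genes of the stretch between Pvt1 and the far end. The one farthest from a site was Gm20740, at 173023 bp.

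Sites near genes of the Myc family and its partners were read for comparison. These are transcription factors that bind DNA as pairs with Max or Mlx, the Mxd and Mnt repressors among them, and the Myc partner Zbtb17. Of the 14 genes, 13 had a site within 20 kb, 92.9% against 84.6% of 21631 protein-coding genes. Max had none, the nearest lying 27930 bp away. The highest site in the gene body had 81 tags in Mxd3, 76 in Mxi1, 55 in Mlxipl and 50 in Mlxip, all strong, against 13 in Mga, 10 in Mycl, 8 in Mnt, 6 in Myc, 5 in Zbtb17 and 4 in Mycn. Max, Mlx, Mxd1 and Mxd4 held none.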

How the data were processed

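The 7 libraries were CTCF ChIP-exo 5.0 of mouse tissue. The authors kept only unique alignments, dropped PCR duplicates, and deposited for every peak its tag count, not normalized, with the standard deviation of the tag positions as another value, in mm10 coordinates. All 2446 deposited peaks of the domain were 21 bp wide. The tools named in the submitters' processing notes are bcl2fastq 2.16 and BWA 0.7.9a, and the study's methods name no mouse genome.

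From the deposited counts, sites were built as peak pairs in the 2700000 cell library, and tags were summed within 100 bp of each site centre. Overlapping windows share tags. Dense bins are the 23 bins of 10 kb where 6 libraries each had 20 or more peaks. Genes came from RefSeq (GRCm38.p6) without strand, so that distances are to gene ends. Named sites were the 20 strongest, those nearest each end of Myc and Pvt1, that with most tags in each organ, and those with tags in all 4 organs. The domain, the lists and the limits were chosen with earlier results of these data known. No comparison was tested, since each condition had 1 library, and the precision is that of the counts. Site building was tested on simulated data. Alternatives were other windows, spacings, minimum tags and denominators, and peaks without 1 position. Work was done in Python 3.11.15 with scipy 1.17.1, pandas 2.3.3, numpy 2.4.6 and matplotlib 3.10.9.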

Additional observations from a re-analysis of the deposited data

How the results depend on the processing

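The number of sites, 51, was 41 to 61 under other pair spacings, separations of 500 bp, without peaks of 1 position or with sites within 200 bp counted once (43, an alternative chosen after the data were seen), but 20 with peaks of at least 5 tags. With that minimum, sites with tags fell to 4 in brain, 3 in kidney, 0 in liver and 1 with 270000 cells. With sites 500 bp apart they were 11 in brain and 7 with 270000 cells. Without peaks of 1 position they were 10 in brain and 3 in lung. A window of 400 bp gave 12 in kidney. The median distance between stops was 57 bp with spacings of 10 to 120 bp. The share of tags in the domain outside dense bins was 0.105% in brain, 0.115% in kidney, 0.111% in liver, and 0.0740%, 0.103% and 0.121% in the titration from most to fewest cells. Without peaks of 1 position it was 0.0336% in brain, 0.0518% in lung, 0.0439% in kidney, 0.0375% in liver, 0.0593% with 2700000 and 0.0295% with 270000 cells. The cause of these changes was not tested. Of the 200 values of organ tags at named sites under other windows, 16 left their counting interval. No paired analysis was possible because each condition had 1 library.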
